A study of Mus musculus with 4 samples.

Results

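Chromatin immunoprecipitation sequencing peaks were examined around 7 genes of glutathione and thioredoxin metabolism and of the antioxidant programme driven by NRF2: Gclm, Gclc, Slc7a11, Txnrd1, Srxn1, Nqo1 and Sqstm1. A peak was taken when its summit, the base with the most overlapping fragments, lay in a fixed window of 140 to 200 kb around the gene on the mouse build mm9. The windows held 34 of 7017 peaks: 16 of 3873 for Bach1, 11 of 1385 for Bach2 and 7 of 1759 for Mafk. All libraries came from M1, a mouse myeloid leukemia cell line that received no stimulation, and all 3 factors were mapped in this line. Bach1 was precipitated with the in-house antibody A1-6, Bach2 with the in-house antibody Bach2N2, and Mafk with an antibody bought from Santa Cruz against NF-E2 p18, an earlier name of Mafk. Each factor had 1 library. The labels also list input DNA without antibody, which is used here only through the fold enrichment of the lists. No value below therefore has a replicate check. The lists hold no expression values, so the identity of the cells and the activity of the 7 genes could not be checked in them.

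Bach1 and Bach2 are transcriptional repressors with a basic leucine zipper and a BTB domain, and each binds DNA paired with a small Maf protein such as Mafk. Their sites, known as Maf recognition elements or antioxidant response elements, are shared with the activator NRF2, which also pairs with small Mafs. In textbook accounts Bach1 holds such genes low until heme or oxidative stress releases it from DNA. The products of the 7 genes act at different points: Slc7a11 imports cystine, Gclc and Gclm are the catalytic and modifier subunits of glutamate-cysteine ligase, which limits glutathione synthesis, Txnrd1 reduces thioredoxin, Srxn1 reactivates oxidised peroxiredoxins, Nqo1 reduces quinones, and Sqstm1 (p62) is an autophagy receptor that binds Keap1, the inhibitor of NRF2.

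Promoters of 3 of the 6 genes that could be searched held letters of the kind that small Maf heterodimers recognise. The RefSeq promoter table on GRCm38.p6 held 8 promoters for 6 of the 7 genes, each from 250 bases before the start to 50 bases after it. They were searched on both strands for TGACTCA, the core shared with AP-1, and for TGACNNNGC, the core of the antioxidant response element. At least 1 match was found in 3 promoters, which are printed on the strand of the gene with the matches in capitals; each match here reads as the reverse complement of its core.
Srxn1, chr2:152105274-152105573, plus strand: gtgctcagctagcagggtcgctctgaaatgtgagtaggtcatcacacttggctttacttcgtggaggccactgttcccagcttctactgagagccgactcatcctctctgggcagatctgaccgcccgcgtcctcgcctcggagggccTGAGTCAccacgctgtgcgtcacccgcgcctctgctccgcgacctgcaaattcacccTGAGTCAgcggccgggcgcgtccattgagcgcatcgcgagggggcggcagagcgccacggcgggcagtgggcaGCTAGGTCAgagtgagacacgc
Gclm, chr3:122245307-122245606, plus strand: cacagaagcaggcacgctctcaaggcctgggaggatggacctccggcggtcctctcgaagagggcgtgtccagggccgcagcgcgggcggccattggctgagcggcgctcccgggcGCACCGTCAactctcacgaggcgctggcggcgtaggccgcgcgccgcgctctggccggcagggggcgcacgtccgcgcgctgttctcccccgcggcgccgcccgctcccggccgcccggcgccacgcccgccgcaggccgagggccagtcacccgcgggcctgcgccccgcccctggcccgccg
Txnrd1, chr10:82858956-82859255, plus strand: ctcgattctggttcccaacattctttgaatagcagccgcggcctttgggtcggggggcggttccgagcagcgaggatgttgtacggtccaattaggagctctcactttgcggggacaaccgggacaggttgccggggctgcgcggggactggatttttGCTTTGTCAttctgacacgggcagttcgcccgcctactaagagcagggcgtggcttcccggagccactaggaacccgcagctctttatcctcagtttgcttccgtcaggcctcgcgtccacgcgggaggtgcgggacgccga
The Srxn1 promoter held TGACTCA at 2 places, which began 102 and 45 bases before the start, and TGACNNNGC at 1 place within the last 50 bases of the window. The Gclm promoter held TGACNNNGC 134 bases before the start, and 1 of 3 Txnrd1 promoters held it 92 bases before. TGACTCA was thus in 1 of the 8 promoters (12.5%) and TGACNNNGC in 3 of 8 (37.5%). Of all 32851 promoters of this length, 5.20% held TGACTCA and 12.4% held TGACNNNGC. The promoters of Slc7a11, Nqo1 and Sqstm1 held neither core in these 300 bases. The table had no entry for Gclc. These positions are on GRCm38 and the peaks on mm9, so no match was placed under a peak.

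Bach1 had a peak in each of the 7 windows, Bach2 in 6 and Mafk in 5. As a background, the genome between the outermost peaks of each chromosome was divided into 16956 segments of 150 kb, whose content of genes differs. A Bach1 summit lay in 16.7% of these segments, a Bach2 summit in 6.82% and a Mafk summit in 9.36%. The window without Bach2 was that of Nqo1, and those without Mafk were those of Nqo1 and Sqstm1. Overlapping peaks merged into 17 sites. Peaks of all 3 factors met at 6 of them, which lay in the windows of Gclm (3 sites), Gclc, Slc7a11 and Txnrd1 (1 site each), so 4 of 7 windows held such a site against 1.67% of the segments. Over all 5410 sites of the 3 lists, 5.49% held all 3 factors. Another 5 of the 17 sites had Bach1 and Bach2 (16.1% of all sites), 5 had Bach1 alone (47.7%) and 1 had Mafk alone (24.7%). Bach2 alone was found at 0 of the 17 sites, against 3.75% of all sites, a share at which few or none would be met among 17.

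**Figure D1:**
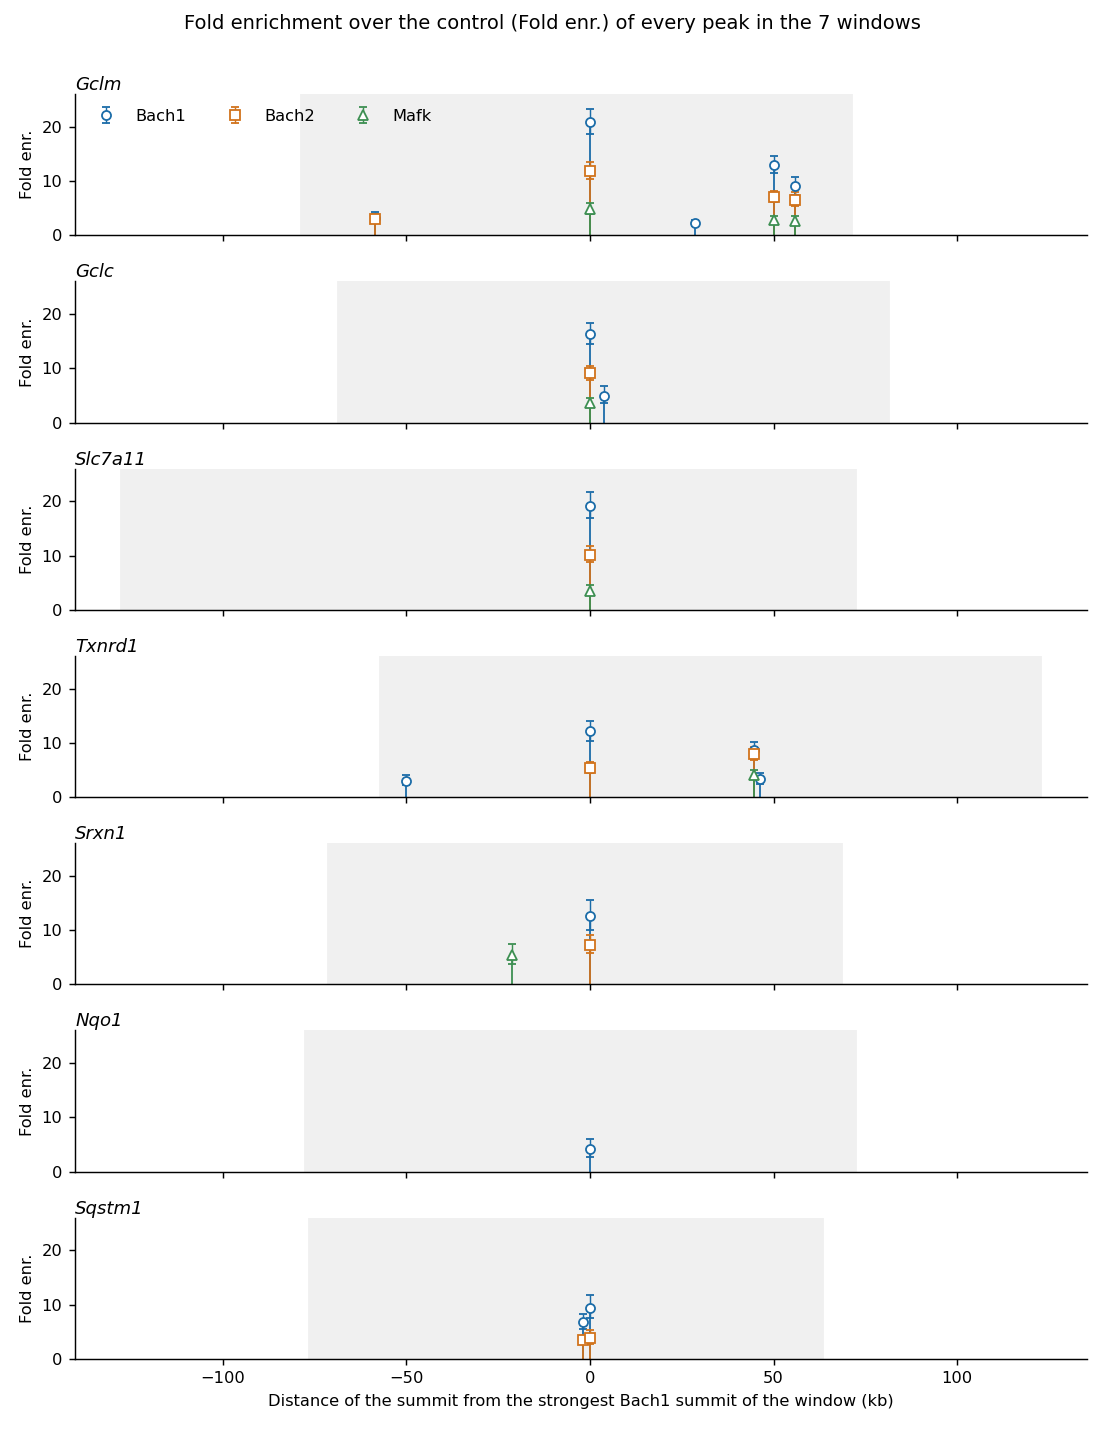
Fold enrichment over the control (vertical axis, linear) of every Bach1 (circles), Bach2 (squares) and Mafk (triangles) peak against the distance in kb from the strongest Bach1 summit of its window, with 1 panel per gene and the window shaded. Bars are exact Poisson 95% intervals from the pileup and cover counting error only; the strongest Bach1 peaks stood at 20.8 in the Gclm window and 19.2 in the Slc7a11 window, and the single Nqo1 peak stood at 4.14.

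In what follows, the pileup is the number of fragments over the summit, and the fold enrichment is the ratio to the control that the authors' peak caller gave. The 95% interval beside a value is the exact Poisson interval of the pileup with the control taken as fixed, and it covers counting error only; fragments copied by PCR are not independent molecules. Ranks run from the strongest peak of the same list, and lists are not ranked against each other.

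Slc7a11, the cystine importer, had a single site, with peaks of all 3 factors (chr3:50247110-50247963). Bach1 had a pileup of 255 fragments and a fold enrichment of 19.2 (16.9 to 21.7), rank 74 of 3873. Bach2 had 178 fragments and 10.2 (8.74 to 11.8), rank 60 of 1385. Mafk had 58 fragments and 3.49 (2.66 to 4.49), rank 1548 of 1759. The summits were nearly on the same base: Bach2 and Mafk both at 50247636, 2 bp from Bach1. No other peak lay in this window of 200 kb, the widest of the set.

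Gclc, the catalytic subunit, had its main site at chr9:77598209-77598821, also with all 3 factors. Bach1 had a pileup of 275 and a fold enrichment of 16.4 (14.5 to 18.4), rank 123. Bach2 had 197 and 9.15 (7.92 to 10.5), rank 85. Mafk had 77 and 3.58 (2.83 to 4.46), rank 1523. The 3 summits fell within 11 bp. A weaker Bach1 peak without the other factors lay 3.80 kb further along (chr9:77602207-77602464), with a pileup of 38 and a fold enrichment of 4.97 (3.55 to 6.77).

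Gclm, the modifier subunit, had the most peaks: 5 for Bach1, 4 for Bach2 and 3 for Mafk. At least 5 Bach1 summits, a number set from this window after it was seen, were found in 0.153% of the 150 kb segments. The strongest site, chr3:121948181-121949164, carried all 3 factors. Here Bach1 had a pileup of 333 and a fold enrichment of 20.8 (18.7 to 23.2), rank 51, Bach2 had 248 and 11.9 (10.5 to 13.5), rank 27, and Mafk had 99 and 4.91 (4.0 to 5.97), rank 849. These were the highest Bach1 and Bach2 values of the set, and the Mafk pileup was the highest of its 7 peaks. At 50.04 kb from it, a second site with all 3 factors had a Bach1 pileup of 272 and a fold enrichment of 13.0 (11.5 to 14.6), against 192 and 7.14 for Bach2 and 72 and 2.87 for Mafk. At 55.8 kb, a further such site had 126 and 9.01 (7.52 to 10.7) for Bach1, 112 and 6.59 for Bach2, and 51 and 2.73 for Mafk. These 2 sites were 5.72 kb apart. Their Mafk peaks ranked 1707 and 1729 of 1759 by fold enrichment, and 276 and 621 by pileup. Of 28 and 77 Mafk peaks with a control background within 10% of theirs, themselves included, 5 and 3 had a lower pileup. The lowest pileups called among those were 58 and 47.

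The remaining Gclm sites were weak. On the other side, 58522 bp away, Bach1 (54 fragments, fold enrichment 3.26) and Bach2 (55 fragments, 3.10) overlapped without Mafk. A Bach1 peak alone lay 28.7 kb from the strongest site, with 58 fragments and 2.23 (1.70 to 2.87), rank 3794 of 3873. Its control background was 6.10 times the lowest of the list, the highest at any peak of the 7 windows, and its part in the result was not tested. Across the 4 sites that Bach1 and Bach2 shared, both factors had the same order of fold enrichment. In GRCm38 gene order Gclm stands between Abca4, a lipid transporter, and Dnttip2, so the outer sites need not belong to Gclm.

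Txnrd1, the cytosolic thioredoxin reductase, had 4 Bach1, 2 Bach2 and 1 Mafk peak, and here the factors did not rank the sites alike. Bach1 was strongest at chr10:82276769-82277414, with a pileup of 186 and a fold enrichment of 12.1 (10.4 to 13.9). At chr10:82321498-82322192, 44.8 kb away, it had 156 and 8.61 (7.32 to 10.1). Bach2 went the other way: 112 and 5.45 (4.49 to 6.54) at the former against 177 and 7.90 (6.78 to 9.14) at the latter. Mafk had a peak at the latter alone, with 91 fragments and 4.05 (3.27 to 4.97). The intervals of fold enrichment of the 2 sites did not overlap within either Bach list, whereas in pileup the Bach1 intervals (160 to 215 and 132 to 182) did overlap. This contrast was noticed in the values and has no replicate check. The control background was higher at the latter site, at 4.12 against 3.46 times the lowest in the Bach1 list and 3.84 against 3.52 times in the Bach2 list. In pileup the Bach2 intervals (92.2 to 135 and 152 to 205) did not overlap. The control background enters fold enrichment as its denominator, and its part in the contrast was not tested.

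Weaker Bach1 peaks stood alone at the edges of this group, at chr10:82226754-82227204 with 46 fragments and a fold enrichment of 3.04 (2.24 to 4.03), and 1.44 kb past the 3-factor site with 44 fragments and 3.36 (2.46 to 4.48). The former lay 7.04 kb inside the window edge, the closest of any peak. In GRCm38 gene order the neighbours of Txnrd1 are Eid3 and Nfyb, a subunit of the CCAAT-binding factor, so a site in the window is not thereby assigned to Txnrd1.

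Srxn1, the sulfiredoxin gene, had a Bach1 and Bach2 site at chr2:151930929-151931572. Bach1 had a pileup of 84 and a fold enrichment of 12.5 (10.0 to 15.5), rank 271, and Bach2 had 85 and 7.31 (5.85 to 9.02), rank 181. The high fold came with a low control background, 1.38 times the lowest of the Bach1 list; by pileup the Bach1 peak ranked 833 of 3873. No Mafk peak was called at this site. The Mafk peak of the window lay 21.1 kb away (chr2:151910060-151910401), alone, with 35 fragments and a fold enrichment of 5.37 (3.79 to 7.41). It had the highest Mafk fold enrichment of the 7 windows and the fewest fragments of the 7 Mafk peaks, at a control background of 1.06 times the lowest.

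Nqo1, the quinone reductase often used as a readout of NRF2 activity, had the fewest called peaks of the set. A single Bach1 peak was called, at chr8:109927352-109927641, with a pileup of 26 (17.0 to 38.1) and a fold enrichment of 4.14 (2.76 to 6.00), rank 2314 of 3873 by fold and 3646 by pileup. Of 246 Bach1 peaks with a control background within 10% of it, itself included, 21 had a lower pileup, and the lowest had 22. Neither Bach2 nor Mafk had a peak in the window. At a like background, taken from the Bach1 list, the lowest pileup called was 24 in the Bach2 list and 24 in the Mafk list, so a signal below that level could go uncalled.

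Sqstm1, which encodes p62, had 2 sites 1.95 kb apart, each with Bach1 and Bach2 and without Mafk. At chr11:50024338-50024826 Bach1 had a pileup of 100 (81.4 to 122) and a fold enrichment of 6.83 (5.57 to 8.29), and Bach2 had 75 and 3.37 (2.66 to 4.22). At chr11:50026230-50026661 Bach1 had 75 (59.0 to 94.0) and 9.41 (7.43 to 11.8), and Bach2 had 40 and 3.88 (2.80 to 5.26). The former was higher in fragments and the latter in fold for both factors, and the Bach1 intervals overlapped in both measures. For Bach2 the intervals overlapped in fold but not in pileup (59.0 to 94.0 and 28.6 to 54.5). The control background in the Bach1 list was 3.30 times the lowest at the site with more fragments and 1.69 times at its neighbour. In GRCm38 gene order the neighbours are Mrnip and Mgat4b.

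Ordered by the strongest Bach1 fold enrichment, the windows ran from Gclm through Slc7a11, Gclc, Srxn1, Txnrd1 and Sqstm1 to Nqo1. Each window's interval overlapped that of the next, except that Nqo1 (up to 6.00) lay below Sqstm1 (from 7.43). Gclm (from 18.7) also lay above Gclc (up to 18.4). In Bach2 the order was the same apart from Txnrd1 and Srxn1, whose intervals overlapped (7.90 with 6.78 to 9.14, and 7.31 with 5.85 to 9.02). By Bach1 pileup of the same peaks, Gclc (275) stood above Slc7a11 (255), with overlapping intervals. Txnrd1 (186, 160 to 215) stood above Srxn1 (84, 67.0 to 104). In Bach2 pileup, too, Txnrd1 (177, 152 to 205) stood above Srxn1 (85, 67.9 to 105). The order thus depended on the measure, and the part of the control background in it was not tested.

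**Figure D2:**
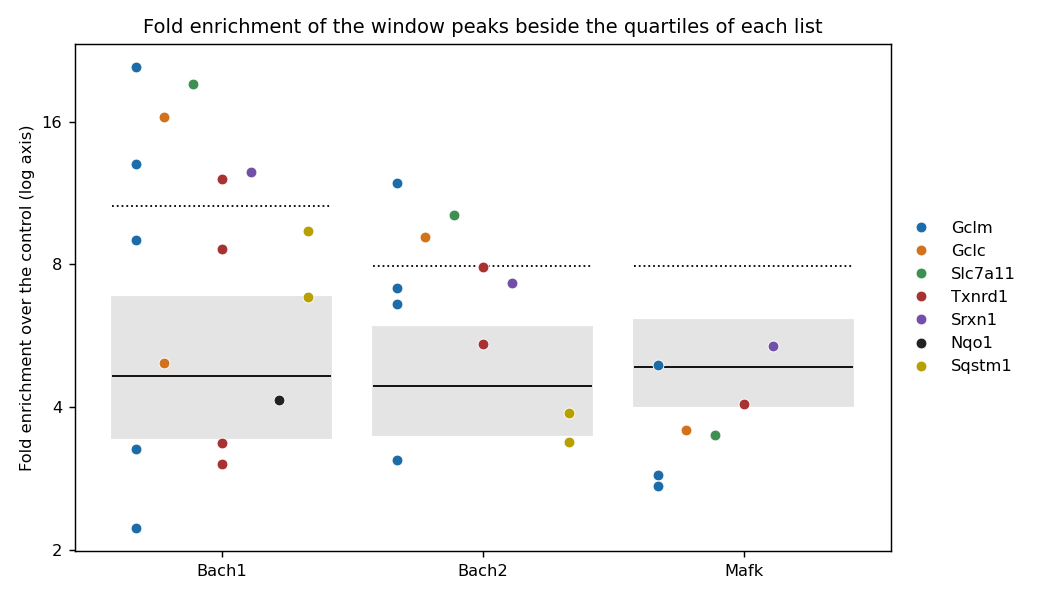
Fold enrichment over the control (vertical axis, log scale) of each window peak, coloured by gene, within the Bach1, Bach2 and Mafk lists. Grey boxes span the quartiles of the whole list, solid lines its median and dotted lines its 90th percentile; 6 of 16 Bach1 and 3 of 11 Bach2 peaks stood above the dotted line, and 0 of 7 Mafk peaks did.

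All 11 Bach2 peaks of the windows lay on a Bach1 peak, where 85.2% of the whole Bach2 list did. Conversely, 11 of 16 Bach1 peaks (68.8%) had a Bach2 peak on them, against 30.3% of the whole Bach1 list. Mafk overlapped 6 of 16 Bach1 peaks (37.5%; 10.8% in the list) and 6 of 11 Bach2 peaks (54.5%; 21.7% in the list). Of the 7 Mafk peaks, 6 lay on a Bach1 peak and the same 6 on a Bach2 peak, against 23.9% and 17.2% of the whole Mafk list. The exception was the lone Mafk peak near Srxn1. In the whole lists, Bach1 peaks with a partner and Bach2 peaks with Mafk also had the higher median fold enrichment. Bach2 peaks with and without Bach1 were not compared in strength. The part of strength in these shares was not tested. No library here checks the 2 Bach antibodies against each other.

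Within the windows, Bach1 peaks with both partners had fold enrichments of 8.61 to 20.8 (6 peaks, median 14.7). Those with Bach2 alone had 3.26 to 12.5 (5 peaks, median 9.41), and those with neither had 2.23 to 4.97 (5 peaks, median 3.36). Among these window peaks, the range of those with neither partner did not overlap that of those with both. In the whole list the corresponding medians were 12.2, 6.53 and 4.05, and the ranges overlapped widely, from 1.36 to 18.5 with neither partner and from 2.12 to 45.3 with both. Bach2 peaks with Mafk had 6.59 to 11.9 (6 peaks, median 8.52) and those without had 3.10 to 7.31 (5 peaks, median 3.88), so these ranges overlapped.

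At most shared sites the peaks were nested, as in the whole lists. Each of the 6 Mafk peaks lay wholly inside both the Bach2 and the Bach1 peak, where 63.6% of all Mafk peaks on a Bach2 peak and 74.8% of those on a Bach1 peak did. Of the 11 Bach2 peaks, 9 lay wholly inside the Bach1 peak, against 67.6% of all Bach2 peaks on a Bach1 peak; the exceptions were the weakest shared Gclm site and the Sqstm1 site with more fragments. Peaks of Bach1 in the windows had a median length of 562 bp (349 in its list), those of Bach2 465 bp (347) and those of Mafk 279 bp (332). The Bach2 summit was 2 to 46 bp from the Bach1 summit (median 20; 22 in the list), and the Mafk summit 2 to 25 bp (median 15; 19 in the list). The 2-bp distances were those of Slc7a11, and the 46 bp was at Srxn1, where no Mafk peak was called.

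**Figure D3:**
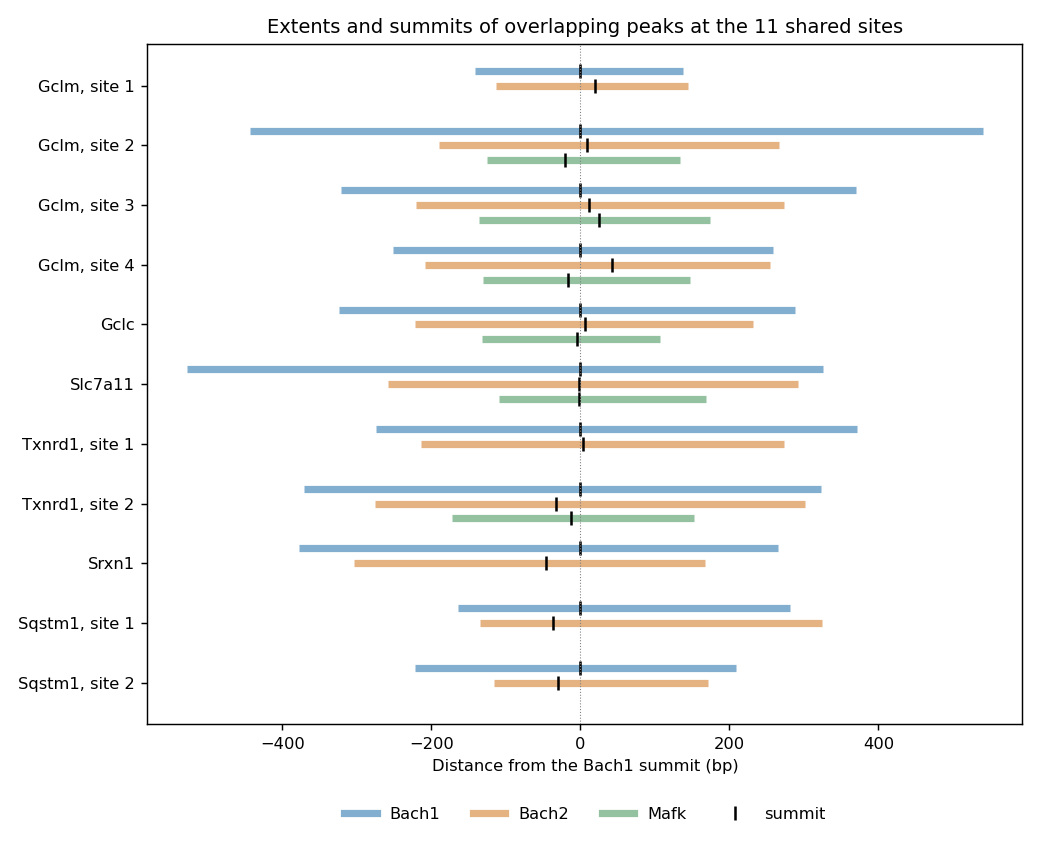
Extents of the overlapping Bach1, Bach2 and Mafk peaks (coloured bars) and their summits (black ticks) at the 11 shared sites, in bp from the Bach1 summit. Sites of 1 gene are numbered along the chromosome; the Mafk bar lies inside the other bars at each of its 6 sites, and the summits lie within 59 bp of each other at every site.

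Several sites came in close pairs. In 4 of 7 windows (Gclm, Gclc, Txnrd1 and Sqstm1) 2 Bach1 summits lay within 10 kb of each other, which took in 8 of 16 Bach1 peaks. In the whole list 16.1% of Bach1 peaks had another summit that near. The distance of 10 kb was chosen after the positions were seen.

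The Bach factors and Mafk differed in how their window peaks stood within their own lists. The median fold enrichment was 8.81 for Bach1 (4.66 in the list) and 7.14 for Bach2 (4.42), but 3.58 for Mafk (4.85). Above the list median were 11 of 16 Bach1, 8 of 11 Bach2 and 2 of 7 Mafk peaks. In pileup, all 3 stood high: medians were 92 fragments for Bach1 (52 in the list), 112 for Bach2 (66) and 72 for Mafk (43), with 12 of 16, 9 of 11 and 6 of 7 above the list median. The control background at the window peaks had a median of 3.38 times the lowest of the list for Bach1 (2.47 in the list), 3.52 times for Bach2 (2.56) and 3.59 times for Mafk (1.34). At the 6 Mafk peaks shared with the Bach factors it was between 2.96 and 4.53 times, and at the lone peak near Srxn1 it was 1.06 times. This background enters fold enrichment as its denominator, and its part in the low Mafk ranks was not tested. Against peaks with a control background within 10% of their own, 10 of 16 Bach1, 8 of 11 Bach2 and 3 of 7 Mafk peaks had a pileup above the median.

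**Figure D4:**
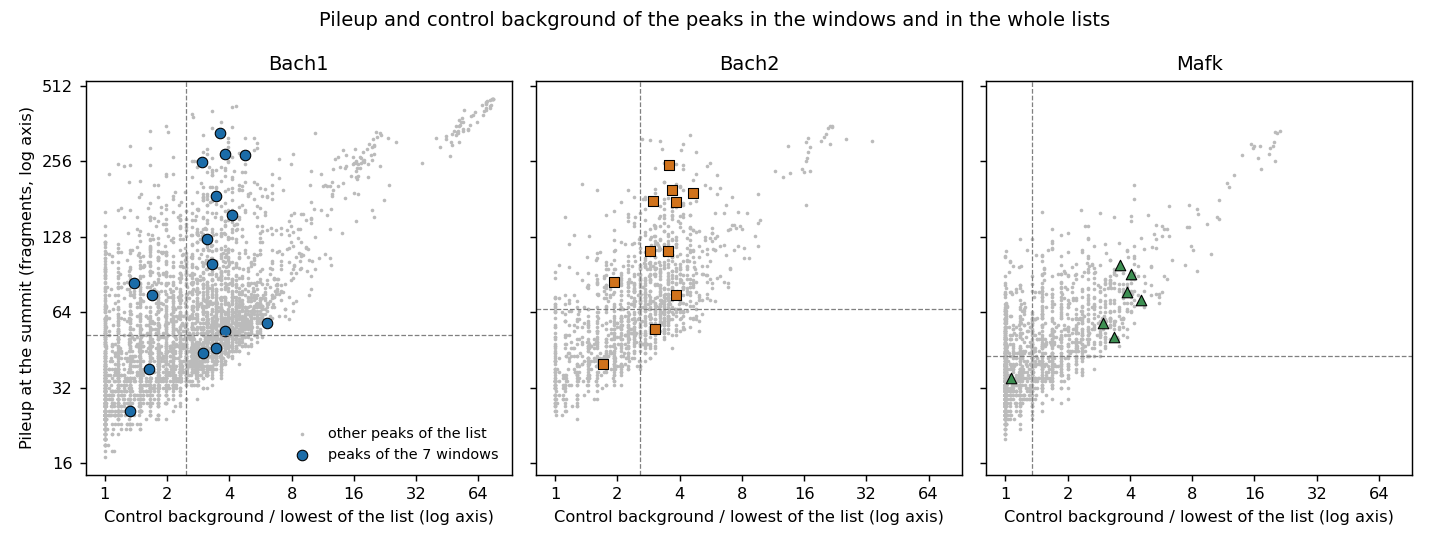
Pileup at the summit (fragments, log axis) against the control background as a multiple of the lowest in the list (log axis) for each library. Large symbols are the peaks of the 7 windows, small grey points the other peaks and dashed lines the list medians; 6 of 7 Mafk peaks lie in the upper right, and the lone Srxn1 peak lies at the lower left.

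A factor without a called peak is not shown to be absent. At the Srxn1 site of Bach1 and Bach2, Mafk peaks with a control background within 10% of that in the Bach1 list (1.38 times the lowest) were called from 24 fragments upward, with a median of 41. Taken from the Bach2 list, whose summit lay 46 bp away, the background was 1.92 times the lowest, and such Mafk peaks were called from 28 fragments, with a median of 50. At the Txnrd1 site of Bach1 and Bach2 they were called from 47 fragments by either background, with a median of 70, and at the Sqstm1 sites from 46 or 47 and from 28 fragments. The 6 Mafk peaks at shared sites had 51 to 99 fragments. These levels are the lowest seen among called peaks and not a threshold of the caller. A Mafk signal below them at Srxn1, Txnrd1 or Sqstm1 could go uncalled in this list.

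The peaks closest to a window edge lay 7.04 kb inside it for Txnrd1 and 15.6 kb for Gclm. Windows narrowed to 50% of their width kept 12 of 16 Bach1, 8 of 11 Bach2 and 5 of 7 Mafk peaks. Each factor kept its number of windows. The peaks lost included those of the 3-factor Gclm sites 50.04 and 55.8 kb from the strongest, so the Gclm counts depend on window width. The nearest peak outside was a Mafk peak 43.1 kb past the Gclm window, followed by a Bach1 peak 49.4 kb past the Sqstm1 window. Outside the Txnrd1 window the nearest peak of any list lay 384 kb from its edge.

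The wider pathway was represented by a list of 26 genes for glutathione, thioredoxin, NADPH supply and NRF2 control, for which no mm9 positions were at hand, so their peaks were not placed. RefSeq held 32 promoters for 23 of them. TGACTCA was found in 3 (9.38%; 5.20% of all promoters): those of Gstp1, a glutathione transferase, Me1, the NADPH-producing malic enzyme, and Prdx1, a peroxiredoxin. TGACNNNGC was found in 10 (31.2%; 12.4% of all promoters), among them promoters of Nfe2l2, which encodes NRF2, of Mafg and Maff, which encode small Mafs, and of G6pdx and Pgd, which supply NADPH. These matches are descriptions of the letters and not of binding.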

How the data were processed

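The lists were analysed as the authors deposited them, 1 per library of paired 51-base reads. CASAVA 1.8, BWA 0.7.10, MACS2 2.1.0 and mm9 are named, per the submitters' processing notes; settings are not given in the sources used here. Per the file headers, the deposited pileup is a signal (whole numbers at every peak) and the deposited fold enrichment is the ratio between that pileup and the local control background; peak names carry q0.01, with no q column. Reads per library are unknown.

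The background was computed as (pileup + 1) / fold - 1, with the pseudocount of 1 that MACS2 uses. Peaks were called shared with at least 1 bp in common. With 1 library a factor there was no test between groups. All peaks in the windows are named, by rule; the window positions were taken as given, since no mm9 annotation was used here. The members and lists were chosen with earlier results of these data known. Alternatives were window width, overlap rule, a fold of at least 5, pileup or a recomputed Poisson p for rank, and segment length. Functions were tested on simulated data. Python 3.11.15, pandas 2.3.3 and scipy 1.17.1 were used. Sequence under the peaks was not analysed here.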

Additional observations from a re-analysis of the deposited data

How the results depend on the processing

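Of 64 alternative values, 53 stayed within 1.5 times the reported value, and 11 moved. A fold enrichment of at least 5 left 10 of 16 Bach1 peaks, and 1 Mafk peak in 1 window, so that 0 Bach1 or Bach2 peaks lay on a Mafk peak and 0 Mafk peaks on a Bach1 or Bach2 peak; fewer peaks remain by construction. With a reciprocal overlap of 50%, 1 Bach1 peak lay on a Mafk peak and 1 Mafk peak on a Bach1 peak, in place of 6. This follows from the lengths, since each Mafk peak lay inside the Bach1 peak and only at the Gclm site 55.8 kb from the strongest (279 and 511 bp) did it cover 50% of it. With summits within 100 bp all 6 sites with 3 factors were kept. The median standing of the Mafk peaks, at 13.4% of the list below them by fold enrichment, was 83.7% by pileup and 46.7% by the recomputed Poisson p. Leaving out each window in turn, chosen after seeing the data, gave 12.7% to 19.8% for Mafk, 84.2% to 86.3% for Bach1 and 84.0% to 86.9% for Bach2. Leaving out sites at 5 times the lowest background was also chosen after seeing the data. The only such window peak was the lone Gclm Bach1 peak, at 6.10 times. It overlapped no other peak, so no count of overlaps could change, and these values among the 53 check nothing. The same holds for the number of windows with a Bach1 peak when the windows were doubled, since all 7 already held such a peak. No paired analysis was possible because the labels give a single library per factor, which also leaves no replicate to omit. The planned use of q values was not run, as the lists have no q column. Reads per library are unknown, so a weak site may go uncalled in a shallower library.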
